A study of Equus asinus with 2 samples.

Results

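MECOM was read as 1 gene of the 38517 features counted in 2 single-cell RNA libraries of fetal donkey (Equus asinus), by its deposited symbol. It was chosen by its measured UMI counts, which spread unevenly over vessels, mural cells and the mesonephros, so its levels are given as a description with no test. One library is tissue labelled as ovary at 8 weeks of gestation, and the other holds gonad with mesonephros at 4 weeks. The labels name no strain, sex or treatment and do not say how many fetuses each library holds, and they also give germ cells as the cell type, while both libraries held many other types. Each stage is 1 library, so stage, dissected tissue and library cannot be told apart, and no p-value is given.

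MECOM, also called EVI1 or PRDM3, encodes a zinc-finger transcription factor whose longer form carries a PR domain. In mouse and human it is known for maintaining blood stem cells, and it is active in endothelium, where arterial identity has been tied to it. In zebrafish and frog embryos its orthologue takes part in forming the distal segments of the pronephric tubule. The mesonephros is the transient embryonic kidney, with glomeruli, proximal tubules, distal tubules and a duct, and lies beside the forming gonad. PRDM16 is the closest paralogue of MECOM.

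The 8-week library held 14593 barcodes and 155128130 UMIs (unique molecular identifiers, each standing for 1 captured RNA molecule), with a median of 5877 UMIs per barcode. The 4-week library held 8938 barcodes and 122341903 UMIs, with a median of 7728. Keeping barcodes with at least 200 genes left 14590 cells at 8 weeks and 8912 at 4 weeks, and the libraries shared 38 barcodes. The 8-week library goes against its ovary label: 1018 of its cells passed a gate of Sertoli cell markers, the supporting cells of the testis, with AMH at 3614 CPM. The 4-week library had 717 such cells with AMH at 2886 CPM. CPM is the sum of a gene's UMIs over a set of cells per 1000000 UMIs of those cells, and its 95% Poisson interval covers counting error only.

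MECOM had 3165 UMIs in 699 cells at 8 weeks, 4.79% of cells and 20.4 CPM, and was the 7762nd most abundant feature. At 4 weeks it had 9899 UMIs in 1333 cells, 15.0% of cells and 80.9 CPM, and ranked 2567th. Cells were placed in gates by the summed UMIs of a marker panel per 10000 UMIs of the cell. A cell that passed more than 1 gate was left out of all of them, with some exceptions. The nephron precursor and stroma panels were read only in cells that passed no other gate, precursor first. Cells of the other gates, mural cells included, may thus also pass these panels. Cells passing both the macrophage and leukocyte panels counted as macrophages. Podocytes that passed the pericyte panel but not the smooth muscle panel stayed podocytes. The cells left out numbered 299 at 8 weeks and 355 at 4 weeks, and a further 1594 and 1344 cells passed no gate. Endothelial cells held 72.0% of the MECOM UMIs of the 8-week library while making up 3.41% of its cells. At 4 weeks endothelial cells held 51.6% from 16.1% of the cells, and distal tubule cells held 17.5% from 4.01% of the cells.

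The gates were checked with markers that had not been used to draw them. In the endothelial gate SOX18, an endothelial transcription factor, stood 23.4-fold over all other cells at 8 weeks and 18.9-fold at 4 weeks. Within the 4-week distal tubule gate TFAP2B, a distal nephron transcription factor, stood 174-fold over the rest, and SLC22A6, a proximal tubule anion transporter, stood 34.3-fold over the rest in the proximal tubule gate. The RGS5-positive mural gate holds cells with an RGS5 UMI that passed a panel of pericyte or smooth muscle genes. It was the least sharp: PDGFRB, the receptor that recruits pericytes, stood 1.93-fold over other cells at 8 weeks and 3.97-fold at 4 weeks. A gate is a range on a continuous score. At 8 weeks 69 cells lay between 80% and 125% of the endothelial cut, and at 4 weeks 108 did. For the pericyte panel these were 509 and 200 cells, and for the distal tubule panel 119 cells at 4 weeks.

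At 8 weeks MECOM was high in a single gate. The 498 endothelial cells had 481 CPM (95% interval 461 to 501), and 63.9% of them carried a MECOM UMI. The next gate, leukocytes, had 19.0 CPM (10.4 to 31.8) from 14 UMIs in 70 cells. Every other gate with at least 50 cells lay between 0.998 and 7.37 CPM, from the pericyte panel without RGS5 up to germ cells. Macrophages had 2.59 CPM, with a UMI in 1.02% of 788 cells at a median depth of 5122 UMIs, while endothelial cells had a median of 5242.

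At 4 weeks the order was longer. Distal tubule cells came first with 513 CPM (489 to 538) over 357 cells, of which 50.7% had a MECOM UMI, and endothelial cells came next with 248 CPM (241 to 255) over 1437 cells, of which 38.5% had one. RGS5-positive mural cells had 110 CPM (97.9 to 123) over 189 cells, ACTA2-high cells without RGS5 64.9 CPM (46.1 to 88.7) over 88 cells, and nephron precursor cells, gated by PAX2, PAX8 and LHX1, 46.5 CPM (43.0 to 50.2) over 407 cells. The intervals of the ACTA2-high and precursor gates overlap, and so do those of the precursor gate and the pericyte panel without RGS5, which had 29.6 CPM (17.2 to 47.3). Stroma had 14.8 CPM (13.0 to 16.7), and all remaining gates with at least 50 cells lay between 4.10 CPM in macrophages and 10.9 CPM in coelomic epithelium, with overlapping neighbours. Macrophages carried a MECOM UMI in 2.52% of 119 cells at a median depth of 5411 UMIs, and proximal tubule cells in 2.33% of 901 cells at 5397.

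**Figure D1:**
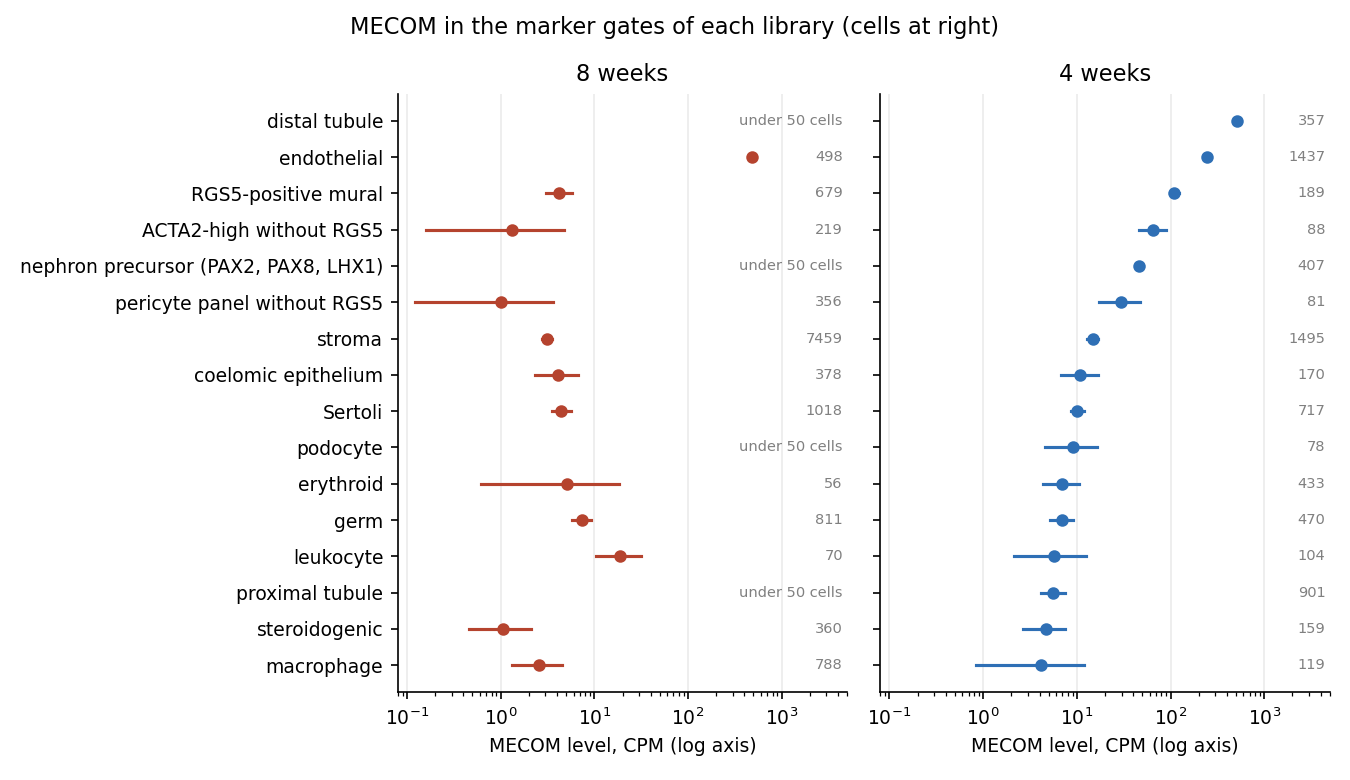
MECOM level in CPM on a log axis for each marker gate, at 8 weeks on the left and at 4 weeks on the right, with 95% Poisson intervals of counting error and the number of cells in grey; gates under 50 cells are not drawn. At 8 weeks only the endothelial gate stands apart at 481 CPM, while at 4 weeks levels run from 513 CPM in distal tubule cells down to 4.10 CPM in macrophages.

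Between the stages MECOM went opposite ways in endothelial and mural cells. Endothelial cells had 481 CPM at 8 weeks and 248 CPM at 4 weeks, a ratio of 1.94 (1.85 to 2.04). RGS5-positive mural cells had 4.23 CPM (3.05 to 5.71) at 8 weeks, against 110 CPM at 4 weeks, which is 26.0-fold lower (18.8 to 36.8). Among genes with at least 30 UMIs over both stages, MECOM was the 1347th highest ratio of 15506 in endothelial cells, where 8.02% were at least 2-fold higher at 8 weeks. In mural cells it was the 84th lowest ratio of 13939, where 9.91% were at least 2-fold lower. ACTA2-high cells and cells of the pericyte panel, both without RGS5, were also lower at 8 weeks, with 1.31 CPM against 64.9 CPM and 0.998 CPM against 29.6 CPM, but both 8-week values rest on 2 UMIs. Without its highest cell the ACTA2-high gate had 28.5 CPM at 4 weeks.

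Stroma had 3.13 CPM at 8 weeks and 14.8 CPM at 4 weeks, and Sertoli-gated cells 4.45 CPM and 10.1 CPM. Germ cells had 7.37 CPM at 8 weeks and 6.97 CPM at 4 weeks, a ratio of 1.06 (0.738 to 1.52) that ran from 0.0833 with the gate cuts doubled to 1.78 with them halved, and was 1.56 without the highest cell of each stage. Nephron gates could not be compared, since the 8-week library held 3 proximal tubule cells, 2 precursor cells and no distal tubule cell or podocyte.

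Within the endothelium MECOM was highest in cells with an arterial gene. GJA5, the gap junction protein connexin 40 of arteries, was found in 54 endothelial cells at 8 weeks, 10.8% of the gate, and these held 31.9% of its MECOM UMIs. At 4 weeks it was found in 181 cells, 12.6% of the gate, and these held 56.7% of the MECOM UMIs. PLVAP forms the diaphragms of fenestrated capillaries, and cells under 5 PLVAP UMIs per 10000 were taken as PLVAP-low. Lymphatic-gated cells, by PROX1, LYVE1 and RELN, were set apart.

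PLVAP-low cells with GJA5 had 1237 CPM (1146 to 1334, 50 cells) at 8 weeks and 1223 CPM (1175 to 1272, 156 cells) at 4 weeks. Their ratio was 1.01 (0.928 to 1.10), and 98.0% and 84.0% of these cells carried a MECOM UMI. PLVAP-low cells without GJA5 had 418 CPM at 8 weeks and 277 CPM at 4 weeks. The stages differed most in PLVAP-high cells without GJA5, with 333 CPM (281 to 391, 57 cells) at 8 weeks and 76.0 CPM (71.3 to 80.9, 858 cells) at 4 weeks, a ratio of 4.38 (3.66 to 5.21). Lymphatic-gated cells were low at both stages, with 35.7 CPM (19.5 to 59.8, 58 cells) at 8 weeks and 40.2 CPM (28.3 to 55.4, 62 cells) at 4 weeks. PLVAP-high cells made up 61 of the 498 endothelial cells at 8 weeks and 882 of the 1437 at 4 weeks, and over all PLVAP-low cells the ratio was 0.923 (0.874 to 0.975). The part of these shares of cell kinds in the ratio of the whole gate was not tested.

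Along PLVAP itself, cells were split into those without a PLVAP UMI, those with up to 5 per 10000, and bins from 5 to 10, from 10 to 20 and from 20 upward. At 8 weeks cells without PLVAP had 911 CPM, and the next 3 bins had 323, 427 and 485 CPM without overlap with the first. The highest bin at 8 weeks held 5 cells with no MECOM UMI. MECOM stepped down along all bins at 4 weeks, with 791, 472, 149, 75.4 and 44.1 CPM. PLVAP-free cells were shallow, with medians of 2946 UMIs at 8 weeks and 4258 at 4 weeks, so a missing PLVAP UMI says less there. At 4 weeks 163 endothelial cells had at least 2 UMIs per 10000 of EHD3, an endocytic recycling protein high in glomerular capillaries of the mammalian kidney, and these had 410 CPM (375 to 449).

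**Figure D2:**
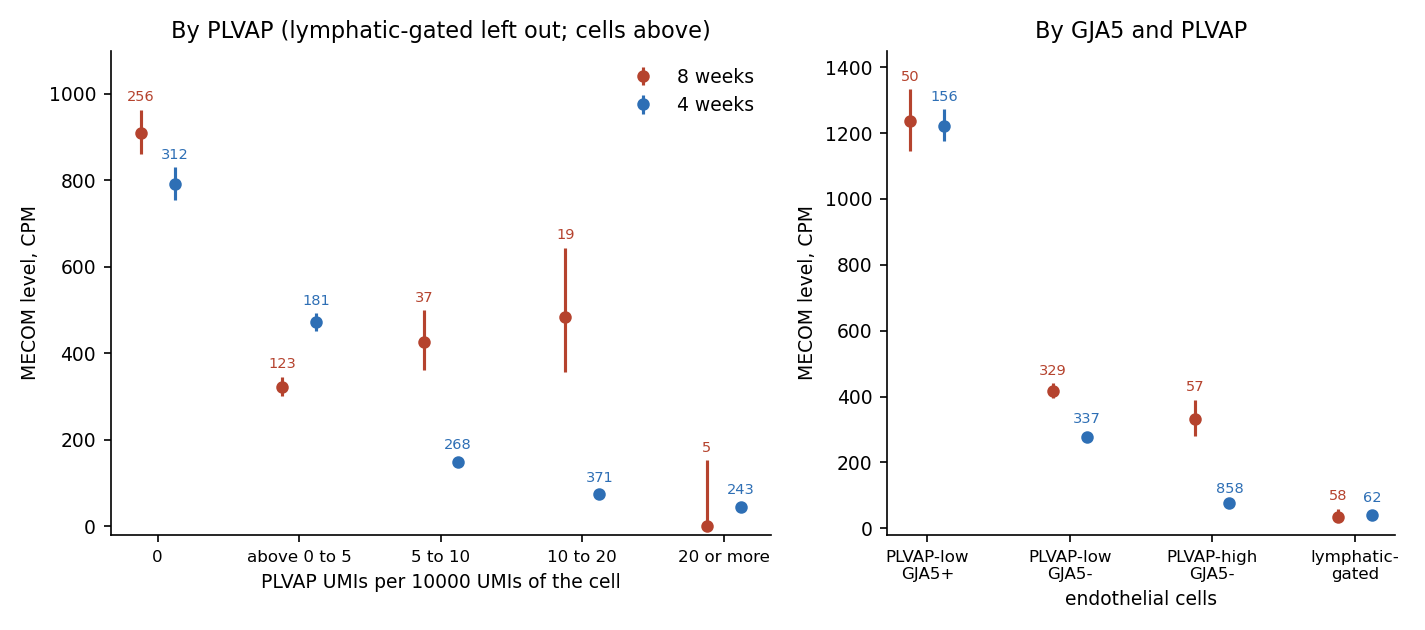
MECOM level in CPM in endothelial cells at 8 weeks (red, left of each pair) and 4 weeks (blue), by PLVAP UMIs per 10000 (left) and by GJA5 and PLVAP with lymphatic-gated cells beside them (right); bars are 95% Poisson intervals and small numbers are cells. Cells with GJA5 and low PLVAP stand at 1237 and 1223 CPM, and PLVAP-high cells without GJA5 at 333 and 76.0 CPM.

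To see which genes went with MECOM, each cell was thinned to 2000 UMIs and the endothelial cells with a MECOM UMI were set against those without one. At 8 weeks this gave 184 positive and 200 negative cells, and at 4 weeks 283 and 1072. A gene with at least 30 thinned UMIs was called when its level was at least 2-fold higher or lower. Of 5140 genes at 8 weeks 4.12% were called higher and 3.05% lower, and of 9486 genes at 4 weeks 3.73% were called higher and 4.19% lower.

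The arterial list held more called genes than these shares. At 8 weeks 7 of its 13 measured genes were at least 2-fold higher in MECOM-positive cells and none was as much lower, with a median log2 ratio of 1.07 against 0.03 over all genes. At 4 weeks 10 of 15 were higher and none lower, with a median of 1.62 against 0.02. GJA5 had 80 UMIs in positive and 4 in negative cells at 8 weeks (21.7-fold, 8.17 to 81.7), and 189 and 39 UMIs at 4 weeks (18.4-fold, 12.9 to 26.6). DLL4, the Notch ligand of arterial and sprouting cells, was 2.38-fold higher at 8 weeks and 3.84-fold at 4 weeks. CXCR4, a chemokine receptor, was 2.76-fold and 5.34-fold higher. HEY1, a Notch target, stood at 1.84-fold (0.887 to 3.97) at 8 weeks and was 8.57-fold higher (4.89 to 15.6) at 4 weeks. SOX17, an arterial transcription factor of the list, did not reach 2-fold, with ratios of 0.753 at 8 weeks and 1.48 at 4 weeks.

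Lymphatic genes were lower in MECOM-positive cells, and few venous and capillary genes passed 2-fold. Of 4 measured lymphatic genes 3 were lower at each stage: at 8 weeks PROX1, the lymphatic master regulator, was 26.7-fold lower and LYVE1, the hyaluronan receptor, 13.5-fold lower. STAB2, a scavenger receptor of sinusoids and lymphatics, had 13.6 CPM in positive and 753 CPM in negative cells at 8 weeks, and 5.30 and 97.0 CPM at 4 weeks. Of the venous and capillary list 1 of 6 genes was lower at 8 weeks, and at 4 weeks 3 of 7 were lower and 1 higher. PLVAP was 2.16-fold lower at 8 weeks and 3.16-fold lower at 4 weeks. At 4 weeks NR2F2, the factor of venous identity, was 2.11-fold lower and EHD3 was higher, with 155 CPM in positive and 51.8 CPM in negative cells. With the lymphatic-gated cells left out, a setting added once values were seen, the 1 lymphatic gene still measured at 8 weeks was not lower, and 1 of 4 was lower at 4 weeks. Of venous and capillary genes none of 6 was then lower at 8 weeks, and 3 of 8 were lower and 1 higher at 4 weeks. In that comparison 7.52% of genes were higher and 1.91% lower at 8 weeks, and 3.78% higher and 4.16% lower at 4 weeks. Its cells were thinned anew, with 188 positive cells at 8 weeks against 184 in the whole gate. Differences from the whole gate thus mix the new draw with the cells left out. The arterial list then had 6 of 13 genes higher at 8 weeks and 11 of 14 at 4 weeks, and none lower. Outside the lists SOX6, a SOX transcription factor, was 20.1-fold and 17.7-fold higher in MECOM-positive cells, and NKAIN2, a small membrane protein, 4.95-fold and 12.4-fold.

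In the mesonephros MECOM was concentrated in the distal nephron. Distal tubule cells had 513 CPM, against 5.61 CPM (4.17 to 7.40) in proximal tubule cells and 9.20 CPM (4.59 to 16.5) in podocytes. SLC12A1 is the sodium, potassium and chloride cotransporter of the thick ascending limb, and SLC12A3 the sodium chloride cotransporter of the distal convoluted tubule. Cells with SLC12A1 and no SLC12A3 had 745 CPM (705 to 787, 104 cells), and cells with SLC12A3 and no SLC12A1 had 401 CPM (352 to 456, 153 cells). Gated cells with neither had 125 CPM (104 to 150, 94 cells). About as many cells of both kinds carried a MECOM UMI, 65.4% and 63.4%, at median depths of 6038 and 3008 UMIs. One cell with 179 UMIs held 10.4% of the distal sum, and without it the level was 468 CPM.

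Distal cells with 5 of 6 transcription factors of the nephron and duct had a higher MECOM CPM, and those with IRX3 a lower one. These splits were chosen after seeing the data. The 35 cells with TFAP2A had 1250 CPM, against 262 CPM in the 322 without it, and the 44 with TFAP2B had 1185 CPM, against 269 CPM in the 313 without it. Cells with SIM1 and cells with POU3F3, a factor of the loop and distal tubule in mouse, had 737 and 688 CPM, against 214 and 231 CPM in cells without each. GATA3, a factor of the nephric duct and distal nephron, marked 69 cells with 988 CPM, against 411 CPM in the other 288. Distal cells with IRX3 had 376 CPM (337 to 418, 24 cells), against 563 CPM (533 to 593) in the 333 without it.

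In the precursor gate the split was sharper for TFAP2A, TFAP2B, POU3F3, SIM1 and GATA3. Its 13 cells with TFAP2A had 663 CPM (604 to 727), against 14.5 CPM (12.5 to 16.7) in the 394 without it. The 61 cells with POU3F3 had 186 CPM, against 8.24 CPM in the 346 without it. The 26 with SIM1 had 380 CPM, against 12.1 CPM in the 381 without it. The 51 with GATA3 had 175 CPM, against 13.0 CPM in the 356 without it. Only 4 cells had TFAP2B, with 844 CPM, against 32.6 CPM in the 403 without it. IRX3, a factor of the intermediate tubule in frog, made no difference beyond counting error, with 46.0 CPM in 43 cells with it and 46.6 CPM in 364 without it. Precursor cells with these factors were deep, with medians of 50945 UMIs with TFAP2A and 22058 without it, and the part of depth in the split was not tested. In all, 16 precursor cells with at least 10 MECOM UMIs held 83.8% of the gate's MECOM.

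Among distal tubule cells thinned to 2000 UMIs, 101 carried MECOM and 185 did not. Of 3523 genes 7.66% were at least 2-fold higher in MECOM-positive cells and 13.5% lower. ESRRG, an orphan nuclear receptor of energy metabolism, had 1431 CPM in positive and 497 CPM in negative cells (2.88-fold, 2.38 to 3.48). SLC12A1 was 3.11-fold higher and SLC12A3 2.11-fold, but both are part of the gate. Of the list of nephron segment regulators, ESRRG was the 1 of 10 measured genes past 2-fold, and GATA3 stood just short of it at 1.998-fold (1.07 to 3.74). Lower genes included UNC5C, a netrin receptor, at 12.3-fold and EYA1, a factor of the early kidney, at 7.23-fold.

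RGS5, a regulator of G protein signalling, marks pericytes and smooth muscle but was read in several other cell types here. Of 2182 RGS5-positive cells at 8 weeks 5.96% carried a MECOM UMI, and of 798 at 4 weeks 19.4% did. Their MECOM levels were 11.6 CPM at 8 weeks and 83.1 CPM at 4 weeks. After thinning to 2000 UMIs the shares were 1.43% (0.966% to 2.03%) of 2099 cells and 8.65% (6.76% to 10.8%) of 775 cells. Median depths before thinning were 15150 and 16399 UMIs, and macrophages thinned the same way showed MECOM in 0.442% of cells at 8 weeks and 1.02% at 4 weeks.

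Which RGS5-positive cells these were differed by gate. At 8 weeks 40 of the 130 MECOM-positive cells were stroma, 30 endothelial, 22 passed more than 1 gate and 19 passed the mural gate, where 679 cells had 4.23 CPM. At 4 weeks 36 of the 155 MECOM-positive cells were endothelial, 28 passed the mural gate, 22 were nephron precursor cells, 22 passed more than 1 gate and 9 were distal tubule cells. RGS5-positive distal tubule cells had 610 CPM in 13 cells and RGS5-positive endothelial cells 170 CPM in 75.

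After a separate thinning 34 RGS5-positive cells at 8 weeks carried MECOM and 2065 did not, and 16.1% of 9205 genes were higher and 10.5% lower. There 8 of 11 arterial genes were higher, and of 13 contractile genes 1 was higher and 6 were lower.

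Over all RGS5-positive cells at 4 weeks the genes with the highest ratio included known genes of arteries, distal tubule and mesenchyme. Thinned likewise, 66 cells were MECOM-positive and 709 negative, and of 8083 genes 6.14% were at least 2-fold higher and 12.3% lower. GJA5 led with 30 UMIs in 14 positive cells and 4 UMIs in 4 negative cells (80.6-fold, 28.4 to 315). GALNTL6, a glycosyltransferase family member, followed with 803 against 17.6 CPM (45.5-fold, 29.2 to 73.5). SLC12A1 of the distal tubule was 20.6-fold higher and GJA4, arterial connexin 37, 12.9-fold. GATA3 had 144 against 12.7 CPM, an 11.3-fold difference (5.63 to 22.9). The cell adhesion genes NRCAM, PCDH10 and CDH18 were 16.7-fold, 12.5-fold and 8.83-fold higher. RARRES1, RELN, MCF2 and NTRK2, the receptor of the neurotrophin BDNF, completed the 12 highest between 8.06-fold and 12.3-fold. With cells of non-mural gates left out 25 positive cells remained, in which 3 of these 12 genes had enough UMIs to be measured, all 3 past 2-fold.

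Genes of other cell types were among the 8 lowest. LRP2, the endocytic receptor megalin of the proximal tubule, was 10.2-fold lower, and HBA1, an alpha globin, 11.6-fold lower. RUNX1, a blood and mesenchymal transcription factor, had 1 UMI in positive and 136 in negative cells. TRABD2B, IFT80 and RNF24 each rested on 1 UMI in the positive cells, and 2 genes without a name, LOC106830211 and LOC123276910, were 14.9-fold and 13.6-fold lower. The arterial list had 4 of 11 measured genes higher and none lower, and the contractile list 2 of 11 higher, which were ACTA2, smooth muscle actin, at 2.42-fold and MYH11, smooth muscle myosin, at 2.17-fold. Of 11 nephron segment regulators 1 was higher and 5 lower.

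The mural gate by itself gave a narrower set. There 21 thinned cells carried MECOM and 165 did not, and of 2517 genes 8.26% were at least 2-fold higher and 15.7% lower. GALNTL6 had 1833 CPM in positive and 30.3 CPM in negative cells (60.5-fold, 31.2 to 131) and CDH18 690 and 6.06 CPM (114-fold, 28.8 to 985). NRCAM, CA10, RGS7 and MCF2 were between 12.8-fold and 31.4-fold higher. ITGA8, the alpha 8 integrin found on mesangial and other mesenchymal cells of the mammalian kidney, had 738 against 75.8 CPM (9.74-fold, 5.57 to 17.2). MYH11 had 786 against 152 CPM (5.19-fold, 3.24 to 8.21), while ACTA2 stood at 1.51-fold (1.09 to 2.04). DCN, the proteoglycan decorin of stroma, was 21.1-fold lower (3.74 to 839) and ABCC9, a potassium channel subunit of pericytes, 8.40-fold lower, each with 1 UMI in the positive cells. Before thinning DCN was closer, with 63 UMIs in 10 of the 28 positive cells, 168 CPM, against 278 CPM in the negative ones. MYH11, ACTA2 and ABCC9 are part of the panels that draw this gate, so their levels are tied to how cells passed it.

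**Figure D3:**
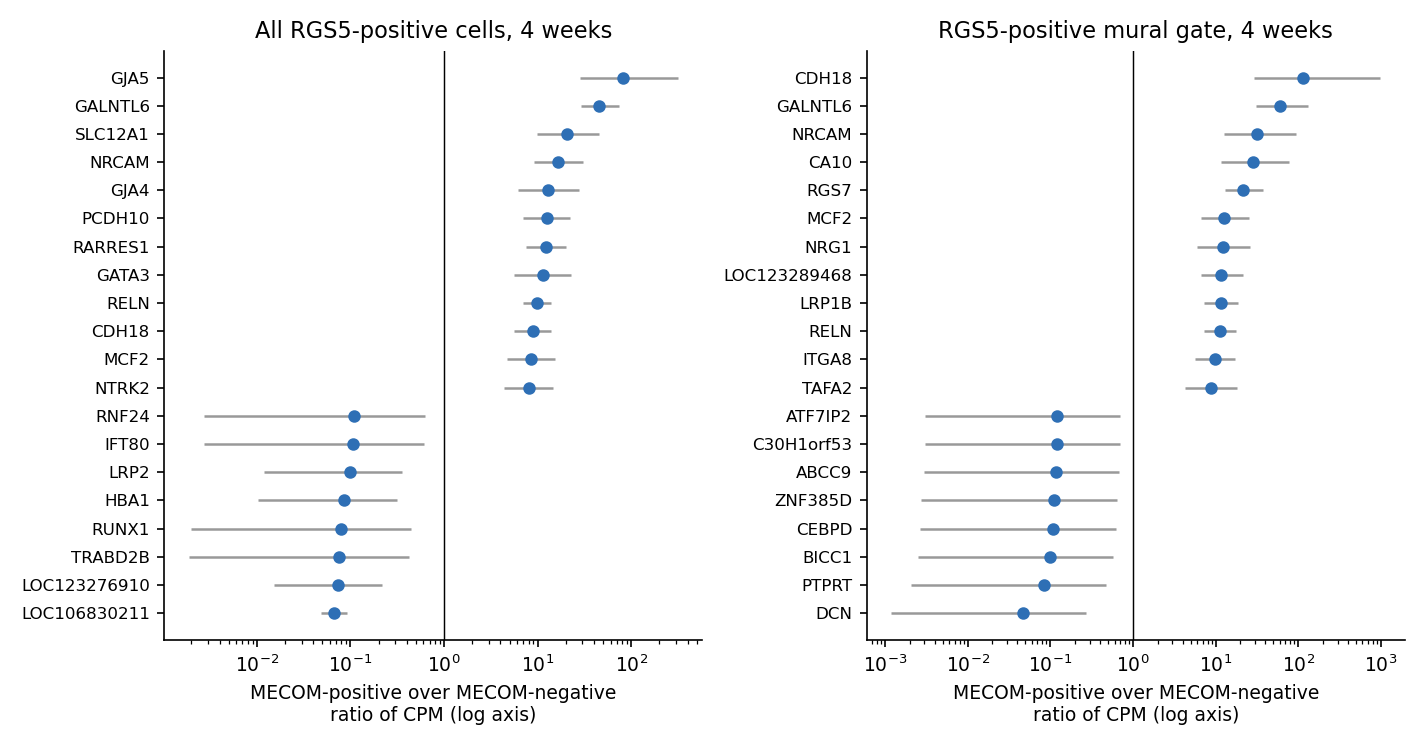
Ratio of CPM in MECOM-positive over MECOM-negative cells at 4 weeks, on a log axis, for the 12 highest and 8 lowest genes among all RGS5-positive cells (left) and in the RGS5-positive mural gate (right), after thinning to 2000 UMIs per cell; lines are 95% intervals of counting error. GJA5 leads on the left at 80.6-fold and CDH18 on the right at 114-fold, and the lowest genes have wide intervals.

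In single mural cells MECOM was rare at 8 weeks and was carried by few cells at high counts at 4 weeks. At 8 weeks 19 mural cells had 1 to 7 UMIs each, with a median of 1, and none reached 10. Their share after thinning, 0.604% (0.165% to 1.54%), overlaps that of macrophages, 0.442% (0.0912% to 1.29%). The 28 mural cells with MECOM at 4 weeks had 1 to 58 UMIs each, with a median of 7.5, and 10 of them held 74.6% of the 307 UMIs. The highest cell held 18.9%, and without it the level was 89.4 CPM. The cells were then split by GATA3, a transcription factor that mesangial cells carry in mouse and human kidney; this split was chosen after seeing the data. At 8 weeks it made no difference beyond counting error, with 5.26 CPM over 66 cells with GATA3 and 4.04 CPM over 613 cells without it. At 4 weeks mural cells with GATA3 had 617 CPM (540 to 702) over 27 cells, of which 17 had a MECOM UMI. Mural cells without it had 32.2 CPM (25.5 to 40.2) over 162 cells, of which 11 had one.

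**Figure D4:**
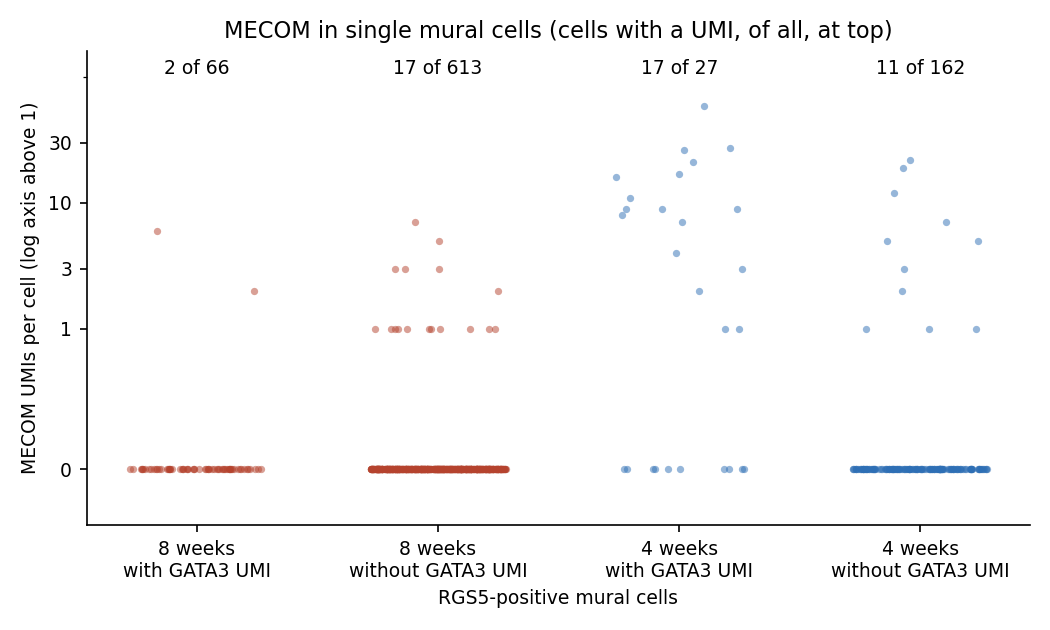
MECOM UMIs in each RGS5-positive mural cell at 8 weeks (red, left) and 4 weeks (blue, right), split by a GATA3 UMI; each point is a cell, with horizontal scatter for visibility and a log axis above 1. Among cells with GATA3, 2 of 66 carried MECOM at 8 weeks and 17 of 27 at 4 weeks.

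Endothelial RNA in these mural cells was measured because MECOM is high in endothelium. At 8 weeks the 19 MECOM-positive mural cells carried it, with CDH5, VE-cadherin, at 119 CPM against 1.83 CPM in the negative ones. Thinned UMIs of the 12 endothelial panel genes summed to 667 CPM in MECOM-positive and 233 CPM in MECOM-negative mural cells at 4 weeks, with 5 and 11 of the 12 genes seen. EMCN, endomucin, had the most in the positive cells, with 70 UMIs in 18 of the 28 cells before thinning, and no other panel gene passed 15 UMIs. PECAM1, KDR, ROBO4 and SOX17, which define endothelium, had 0 UMIs in those 28 cells, and CDH5 had 1. Some other endothelial genes were higher per UMI in the MECOM-positive mural cells: ESAM, a junction protein, had 15 UMIs in 8 of 28 cells against 19 UMIs in 18 of 161, TEK, the angiopoietin receptor, 13.3 against 5.38 CPM, and FLT1, a VEGF receptor, 26.7 against 13.6 CPM. EGFL7, a secreted endothelial factor, and CLDN5, a tight junction claudin, were lower, with 34.7 against 58.7 CPM and 16.0 against 46.7 CPM. GJA5 had 77.3 CPM in them, against 4.13 CPM in the negative ones, and 67.3 CPM in endothelial cells. Endothelial cells of the same library had 465 CPM of PECAM1 and 529 CPM of KDR. Of the pericyte genes, RGS5 had 563 CPM in MECOM-positive and 638 CPM in MECOM-negative mural cells, and PDGFRB 176 and 112 CPM.

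Mural cells with a PECAM1, CDH5 or KDR UMI were then left out, after the values above were seen. These genes were in 7, 9 and 12 of the 19 MECOM-positive mural cells at 8 weeks. At 4 weeks 1 of the 28 MECOM-positive cells held any of them. The filter thus takes MECOM mainly from 8 weeks, so the wider difference it gives follows from the choice of genes. The remaining 617 cells at 8 weeks had 0.717 CPM (0.263 to 1.56) from 6 UMIs, and the remaining 170 cells at 4 weeks 136 CPM (121 to 152) from 298 UMIs, 189-fold lower at 8 weeks (85.9 to 520). The 8-week mural MECOM lay mostly in cells with endothelial RNA: of the 62 mural cells with such a UMI 13 carried MECOM, with 36 of the gate's 42 UMIs at 22.9 CPM. Among the remaining cells with GATA3, MECOM had 0 UMIs in 58 cells at 8 weeks, which allows up to 2.43 CPM, against 914 CPM (797 to 1043) in 23 cells at 4 weeks, of which 16 carried it. Every mural cell with any of the 12 panel genes, EMCN included, was also left out. This kept 195 cells at 8 weeks with 1 MECOM UMI, 0.673 CPM (0.0170 to 3.75). At 4 weeks it kept 39 cells with 6 MECOM UMIs, 21.6 CPM (7.92 to 47.0), and none of these 39 had GATA3.

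At 4 weeks mural cells with MYH11 had 159 CPM (139 to 180, 103 cells), against 54.3 CPM (42.4 to 68.5, 86 cells) without it. Between the stages 7 of 16 contractile genes were at least 2-fold higher in mural cells at 8 weeks and none lower, where 9.25% of all genes were higher. ACTA2, TAGLN, CNN1 and ACTG2 are among these 7 but are part of the panel that draws the gate. In endothelial cells, where MECOM was higher at 8 weeks, 5 of 12 contractile genes were also at least 2-fold higher and none lower. There 8.02% of all genes were higher. Of 11 nephron segment regulators 9 were lower in mural cells at 8 weeks, where 9.91% of all genes were. The 4-week mural gate held nephron RNA, which was scarce at 8 weeks: PAX8 had 0.503 CPM at 8 weeks and 154 CPM at 4 weeks, and LHX1 0.503 and 122 CPM. Within the 4-week gate, thinned UMIs of the 3 precursor genes summed to 23.8 CPM in MECOM-positive and 161 CPM in MECOM-negative cells.

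GALNTL6 was high with MECOM in endothelial cells as well, where it had the highest ratio at 4 weeks, with 73 UMIs in 283 MECOM-positive and 9 UMIs in 1072 MECOM-negative cells (30.7-fold, 15.3 to 69.9).

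PRDM16 was the member of the PRDM family whose levels went closest with MECOM. Over the 28 gates of both libraries with at least 50 cells, Pearson's r of log2(CPM + 10) was 0.78, the 5th highest of 13111 genes with at least 20 CPM in a gate. Gates of a library share depth and free RNA, so r is a description. PRDM16 had 73.1 CPM (64.2 to 82.8) in distal tubule cells, and in endothelial cells 13.9 CPM (10.8 to 17.7) at 8 weeks and 13.3 CPM (11.8 to 15.0) at 4 weeks. RGS5-positive mural cells had 3.82 CPM at 8 weeks and 1.79 CPM at 4 weeks, so PRDM16 was low where MECOM was high in mural cells at 4 weeks. Leukocytes at 4 weeks had 11.5 CPM of PRDM16 from 12 UMIs and 5.75 CPM of MECOM.

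Within gates the genes also shared cells. At 8 weeks the 318 endothelial cells with MECOM had 66 PRDM16 UMIs in 26 cells, and the 180 without MECOM had 0. With 3 counts put in place of 0 this is 4.53-fold higher per UMI, and the lower limit of the counting interval is 3.58-fold. At 4 weeks the 553 cells with MECOM had 268 PRDM16 UMIs in 54 cells and the 884 without it 7 in 7 cells, 36.9-fold higher per UMI (17.6 to 92.6). Distal tubule cells with MECOM had 97.1 CPM of PRDM16 and those without it 19.2 CPM (5.05-fold, 3.19 to 8.43). MECOM-positive cells were deeper, with median UMIs of 7054 against 2720 at 8 weeks and 11119 against 6594 at 4 weeks in endothelium.

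**Figure D5:**
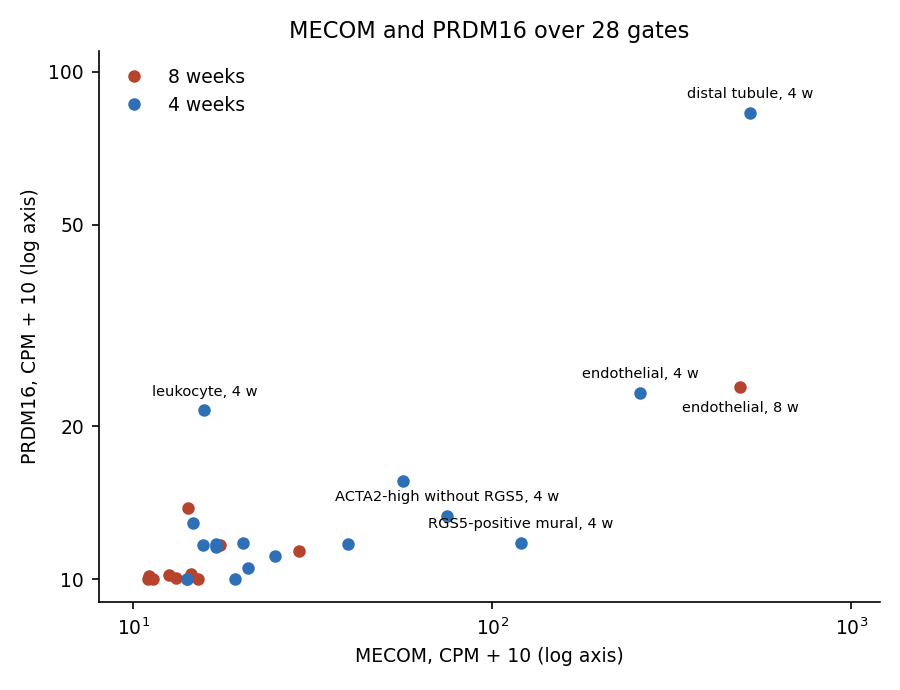
Level of PRDM16 against MECOM, both in CPM with 10 added on log axes, in the 28 gates with at least 50 cells at 8 weeks (red) and 4 weeks (blue). Distal tubule and endothelial gates are high for both genes, and the RGS5-positive mural gate at 4 weeks is high for MECOM at 110 CPM and low for PRDM16 at 1.79 CPM.

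Ahead of PRDM16 stood ATP8B1, a lipid flippase, and LEF1, the WNT pathway transcription factor, both with r of 0.81, and EVA1A and STC1, the hormone stanniocalcin, both with 0.79. S100A16, UCK2, CYYR1, LOC106834475 and SLCO2A1, the prostaglandin transporter, followed at 0.76 to 0.77. LEF1 had 238 CPM in endothelial cells at 8 weeks and 97.6 CPM at 4 weeks, 44.8 CPM in distal tubule cells, and 20.03 and 25.8 CPM in mural cells at 8 and 4 weeks. Of these 10 genes 8 were highest in endothelial cells. GJA5 ranked 27th with 0.71 and GATA3 127th with 0.63. With the gates of the 4-week library alone 1 of the 10 genes stayed among the 10 highest and PRDM16 was 11th with 0.75.

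Genes known to bind MECOM or to be regulated by it in other systems were described next. Of 16 listed partners and targets, 7 were measured in endothelial cells at 8 weeks with none past 2-fold, where 4.12% of all genes were higher and 3.05% lower. At 4 weeks 2 of 11 were higher, among them RUNX1 at 2.35-fold, where 3.73% of all genes were higher and 4.19% lower. In RGS5-positive cells 2 of 11 were higher at 8 weeks, where 16.1% of all genes were. Of 10 measured in those cells at 4 weeks 1 was lower, where 12.3% of all genes were. In the 4-week mural gate 2 of 5 were lower, where 15.7% of all genes were. Among distal tubule cells 1 of 5 was higher, where 7.66% of all genes were. CTBP1 and CTBP2, the co-repressors that bind MECOM, were at 0.906 and 0.990 at 8 weeks and at 0.778 and 1.43 at 4 weeks. Between the stages none of 12 measured members differed 2-fold in endothelial cells, where 8.02% of all genes were higher and 10.8% lower at 8 weeks. In mural cells 3 of 12 were lower at 8 weeks, where 9.91% of all genes were. CTBP2 had 113 CPM at 8 weeks and 284 CPM at 4 weeks, SMAD3, a TGF-beta signal transducer, 25.2 and 80.9 CPM, and ZBTB16, a zinc-finger repressor, 2.31 and 7.88 CPM. Blood progenitor cells, in which MECOM is best known, could not be described: 5 cells of the 4-week library passed that gate and they held no MECOM UMI, which allows up to 56.9 CPM.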

How the data were processed

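Each deposited matrix gives raw UMI counts by gene and barcode, made by the authors in Cell Ranger, version 7.1.0 by the file headers and 2.1.1 by the processing notes. The labels name a DNBelab kit; how its reads were passed to Cell Ranger is not given in the sources used here. The genome build is not given in the sources used here, so no coordinates or sequences are printed. RefSeq symbols (EquAss-T2T_v2) replaced 768 locus identifiers. No doublet caller was run. Cells passing more than 1 gate were left out, apart from the exceptions given with the gates. Levels are CPM of summed counts with 95% Poisson intervals, shares carry Clopper-Pearson intervals, ratios exact conditional binomial intervals, and a count of 0 was set to 3 counts; all cover counting error only, and spread between animals is not in them. A gene with a 0 that set no direction was left out of a comparison. MECOM, the gene lists and the splits were chosen with earlier results of these data known. Named genes are MECOM, PRDM16, the 10 highest r over gates, the 12 highest and 8 lowest ratios among RGS5-positive cells at 4 weeks and the members of 8 lists; others were chosen after their values were seen. Some members of the lists are not reported here. Alternatives changed gate cuts, filters, thinning, pseudocount and clusters (Leiden, scanpy 1.11.5). Ratios were tested on simulated counts. Python 3.11.15, numpy 2.4.6, scipy 1.17.1 and pandas 2.3.3 were used.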

Additional observations from a re-analysis of the deposited data

Results flagged for a closer look

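MECOM moved in opposite directions between the stages in 2 cell types: its 8 over 4 weeks ratio was 1.94 in the endothelial gate and 0.0385 in the RGS5-positive mural gate. The endothelial gate differed in make-up, with PLVAP-high cells 61 of 498 at 8 weeks and 882 of 1437 at 4 weeks. Its ratio was 0.923 (0.874 to 0.975) in PLVAP-low cells and 1.01 (0.928 to 1.10) in PLVAP-low cells with GJA5. Each stage is 1 library, so this difference was not tested.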

How the results depend on the processing

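Every alternative run kept the direction of the endothelial and mural ratios of 8 over 4 weeks, from 1.499 to 2.09 and from 0.00529 to 0.107. Endothelial, mural and distal tubule values that moved past their counting interval are given here, with 8 weeks before 4 weeks; the causes were not tested. With gate cuts doubled, MECOM had 628 and 343 CPM in endothelial cells (ratio 1.83), 177 CPM in mural cells at 4 weeks (ratio 0.0265) and 911 CPM in distal tubule cells. With cuts halved, endothelial cells had 239 CPM at 4 weeks (ratio 2.09), mural cells 2.61 and 72.9 CPM, and distal tubule cells 275 CPM. With cells of several gates kept, endothelial cells had 441 CPM at 8 weeks (ratio 1.74), mural cells 17.9 and 166 CPM (ratio 0.107) and distal tubule cells 474 CPM. Without cells above the 95th percentile of UMIs, endothelial cells had 553 and 267 CPM (ratio 2.07), mural cells 149 CPM at 4 weeks (ratio 0.0248) and distal tubule cells 392 CPM. With Leiden clusters, endothelial cells had 388 and 259 CPM (ratio 1.499), mural cells 2.27 and 140 CPM (ratio 0.0162) and distal tubule cells 482 CPM. The order of distal tubule and endothelial cells at 4 weeks held in all of these.

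Alternatives chosen after seeing the data gave these values. Without the highest MECOM cell of each gate, 4-week levels were 240 CPM in endothelial, 468 CPM in distal tubule and 89.4 CPM in mural cells. Without mural cells carrying any endothelial panel UMI, mural levels were 0.673 and 21.6 CPM, and without those carrying PECAM1, CDH5 or KDR, 0.717 and 136 CPM (ratio 0.00529). Shared barcodes moved no value past its interval.

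A further 56 values moved, in gates with few MECOM UMIs and in gates with more. Stroma at 8 weeks, with 252 UMIs, had 3.13 CPM and 2.48 CPM with cuts doubled. Precursor cells at 4 weeks, with 655 UMIs, had 46.5 CPM and 25.5 CPM with cuts halved. Over all settings the germ cell ratio ran from 0.0833 to 1.78, the ACTA2-high ratio from 0.0168 to 0.261 and the pericyte panel ratio from 0.0287 to 0.371. At 4 weeks levels ran from 1.71 to 43.5 CPM in podocytes, from 25.5 to 86.5 CPM in precursor cells and from 2.75 to 48.6 CPM in macrophages.

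Counts of genes with MECOM among RGS5-positive cells at 4 weeks also moved, from 496 higher and 993 lower, 6.14% and 12.3% of 8083 genes. At least 3 RGS5 UMIs gave 266 and 513, 7.50% and 14.5% of 3549 genes. Leaving out cells of a non-mural gate gave 297 and 459, 8.44% and 13.0% of 3521 genes. No thinning gave 604 and 599, 3.77% and 3.74% of 16015 genes. At least 10 UMIs per gene gave 1209 and 1244, 10.9% and 11.2% of 11124 genes. Fewer cells or genes were measured in the first 2 settings. Of the 12 highest genes, 12 stayed past 2-fold at 10 UMIs and 11 without thinning (CDH18 fell to 0.68 on the log2 scale), while 4 and 3 could be measured in the first 2. Among the 12 highest of each setting, 4 of them stayed at 10 UMIs and 1 without thinning. Of the 10 genes most like MECOM, 6 stayed with log2(CPM + 1) and 1 with 4-week gates alone. No paired analysis was possible because each group is 1 library. Depth limits the low gates, where 1 to 20 UMIs set the level, and the 5 blood progenitor cells.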
